A study of Mus musculus with 8 samples.

Results

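The regions described here lie at the genes of core-binding factor: Runx1, Runx2 and Runx3, which encode the DNA-binding subunits, and Cbfb, which encodes their shared partner subunit. A region of open chromatin belonged to one of these genes when the gene's annotated extent was the nearest, or tied for nearest, to the centre of the region within 100 kb. By this rule 139 of 160978 tested regions belonged: 56 to Runx1, 64 to Runx2, 16 to Runx3 and 3 to Cbfb. Of these, 114 had their centre inside the gene and 25 outside it. The farthest lay 76.9 kb beyond the end of Runx2, and the authors' deposited table gives it a log2 fold change of -1.36. No region with one of these genes as its nearest lay between 100 and 300 kb, so the limit left none out. Ties concerned 2 Runx1 regions shared with the gene Gm30281 and 8 Runx2 regions shared with Supt3, which overlaps the first part of Runx2.

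Chromatin was profiled by ATAC-seq, in which a transposase inserts adapters where DNA is accessible, in bone marrow cells of mice sorted as cKit+ Lymph- Ery- HSPC (hematopoietic stem and progenitor cells). Of 8 libraries, 4 were labelled AML (acute myeloid leukemia): 2 from URE-delta/+;Tet2+/- mice and 2 from URE-delta/+;Tet2-/- mice. The other 4 were labelled Normal, with 1 each from URE-delta/+;Tet2+/+, URE+/+;Tet2+/-, URE+/+;Tet2-/- and URE+/+;Tet2+/+ mice. URE is the upstream regulatory element of Spi1, the gene of the transcription factor PU.1, and Tet2 encodes an enzyme that oxidises methylated cytosine. The controls were matched for age, but the sources used here leave their ages out. Kit, a marker used in the sort, had 16 regions with a highest log2 abundance of 3.26 and 0 called in the authors' deposited table. This does not check the label HSPC, since Klf1, a gene of the depleted erythroid lineage, reached a log2 abundance of 4.11. Other stem and progenitor genes had losses, as given below. No normal library carries the URE deletion together with a Tet2 lesion, so leukemia and the combined genotype cannot be told apart. The libraries came from lanes 6, 7 and 8, and lane 8 holds 2 normal libraries and no AML library.

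Leukemic and non-leukemic cells with low PU.1 were compared by the authors, and the result was analysed as 1 log2 fold change, 1 log2 average abundance and 1 adjusted p-value per region. The sources used here do not say which libraries entered either side, and only 1 normal library carries the URE deletion. Values per library were not analysed here, so sequencing depth and the variation among mice are unknown and no fold change has an error of its own. A region is called, and is said to have risen or fallen in leukemic cells, at an adjusted p under 0.001, which is the threshold of the authors' own sets. In a bulk sample, a change in the share of cells with an open region and a change in openness per cell cannot be told apart.

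Runx proteins bind DNA through a conserved runt domain, and the partner encoded by Cbfb strengthens that binding without touching DNA itself. Runx1 is needed for blood stem cells to form in the embryo and for megakaryocyte, lymphoid and myeloid maturation in the adult, and both Runx1 and Cbfb are recurrent targets of rearrangement or mutation in acute myeloid leukemia. Runx2 is the master regulator of bone formation, and Runx3 acts in cytotoxic T cells, natural killer cells and sensory neurons. Each Runx gene is transcribed from a distal promoter and a proximal promoter, which give proteins with different amino termini. In Runx1 an enhancer active in blood stem cells is known between these promoters.

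RefSeq on GRCm38.p6 places Runx1 (gene ID 12394) at chr16:92601466-92826074 on the minus strand, with a distal start at 92826074 and a proximal start at 92697329, 128.7 kb apart. Runx2 (gene ID 12393) lies at chr17:44495987-44814797 on the minus strand, and its start at 44814627 is the distal one; its proximal start was not analysed here. Runx3 (gene ID 12399) lies at chr4:135120645-135177990 on the plus strand, with a distal start at 135120645 and a proximal start at 135152545, 31.9 kb apart. Cbfb (gene ID 12400) lies at chr8:105170674-105217989 on the plus strand with 1 listed start at 105170674. Positions are given below as distances from these starts along transcription, since exons and introns were not analysed here.

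The promoter sequences of 4 starts are shown because the distal Runx promoters share a run of bases and because the starts of Runx1 differed in their calls. Each runs 5′ to 3′ on the strand of the gene, from 250 bases before to 50 after the start, from RefSeq on GRCm38.p6. Capitals mark matches on either strand to the RUNX core TGTGGT, the hexamer that Runx proteins bind, which reads ACCACA on the other strand. Their positions are chr16:92826025-92826324 for the Runx1 distal start, chr16:92697280-92697579 for the Runx1 proximal start, chr17:44814578-44814877 for the Runx2 distal start and chr4:135120395-135120694 for the Runx3 distal start.
Runx1 distal: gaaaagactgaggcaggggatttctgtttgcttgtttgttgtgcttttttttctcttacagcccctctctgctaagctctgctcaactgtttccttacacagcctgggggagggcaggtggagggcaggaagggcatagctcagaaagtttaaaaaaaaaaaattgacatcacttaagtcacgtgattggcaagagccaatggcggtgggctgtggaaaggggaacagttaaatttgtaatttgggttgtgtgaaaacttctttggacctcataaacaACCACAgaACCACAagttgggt
Runx1 proximal: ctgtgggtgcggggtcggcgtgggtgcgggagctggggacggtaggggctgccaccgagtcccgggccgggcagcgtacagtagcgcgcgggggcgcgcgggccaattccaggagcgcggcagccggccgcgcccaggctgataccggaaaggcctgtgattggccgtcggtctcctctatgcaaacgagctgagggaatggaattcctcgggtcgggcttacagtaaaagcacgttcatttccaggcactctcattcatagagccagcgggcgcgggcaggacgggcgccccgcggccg
Runx2 distal: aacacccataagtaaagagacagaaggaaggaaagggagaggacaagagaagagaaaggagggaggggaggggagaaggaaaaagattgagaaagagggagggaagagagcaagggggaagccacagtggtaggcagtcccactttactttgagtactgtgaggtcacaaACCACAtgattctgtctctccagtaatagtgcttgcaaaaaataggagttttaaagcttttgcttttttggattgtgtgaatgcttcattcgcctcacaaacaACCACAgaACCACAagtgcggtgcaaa
Runx3 distal: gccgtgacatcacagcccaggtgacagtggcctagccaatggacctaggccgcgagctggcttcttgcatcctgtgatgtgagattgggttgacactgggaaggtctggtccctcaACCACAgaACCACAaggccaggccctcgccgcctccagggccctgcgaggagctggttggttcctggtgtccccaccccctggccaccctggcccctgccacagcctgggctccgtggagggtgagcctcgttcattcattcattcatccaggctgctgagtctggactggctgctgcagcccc

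All 3 distal promoters held the 18 bases CAACCACAGAACCACAAG, which contain 2 RUNX cores on the reverse strand. Of 32817 RefSeq promoter windows of 300 bases, 4 (0.0122%) held these 18 bases: those of the Runx genes and that of Gm16225, a non-coding gene beside the Runx3 distal start. The shared run was longer between Runx1 and Runx2, at 22 bases (AAACAACCACAGAACCACAAGT). Its cores began 28 and 36 bases after the Runx1 start and 23 and 31 after the Runx2 start, whereas in Runx3 they lay 134 and 126 bases before the start. Runx2 had 1 further core 80 bases before its start. The RUNX core was found in 16.8% of all promoter windows, and at least 2 times in 1.81%.

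The proximal windows of Runx1 and Runx3 and the window of Cbfb held 0 RUNX cores, which says only that these letters are not in these windows. They were rich in G and C, at 69.0% in Runx1, 77.3% in Runx3 and 69.7% in Cbfb, with 35, 45 and 30 CpG. The distal windows were at 45.0% in Runx1, 45.3% in Runx2 and 63.7% in Runx3, with 2, 2 and 8 CpG, beside a median over all windows of 52.7% and 7 CpG. The longer PU.1 form GAGGAAGT, present in 3.2% of all windows, occurred 1 time, in Cbfb. The GATA form AGATAA (11.2% of all windows), the E-box CAGCTG (16.3%), the AP-1 site TGANTCA (7.81%), the CEBP site TTGCGNAA (0.798%) and the CRE TGACGTCA (1.79%) were in 0 of the 6 windows, and the ETS core GGAA was in 5 of them and in 96.0% of all windows.

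At Runx1, 4 regions at or past the proximal promoter rose in leukemic cells, while 2 regions between the promoters and nearer the distal one fell. Of its 56 regions, 4 rose and 2 fell, a share called of 10.7% beside 2.46% of all regions (1.24% rose and 1.22% fell). Called regions are more frequent where abundance is high: among regions above the median abundance 6 of 36 were called at Runx1 (16.7%), beside 4.75% of all such regions. The median log2 fold change over the Runx1 regions was -0.09, with a range of -1.97 to 2.70, beside 0.02 over all regions, and it was 0.045 over the Runx1 regions above the median abundance.

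The proximal start of Runx1, which lies in a region 2374 bp wide (chr16:92696531-92698905), had a log2 fold change of 1.71 and a log2 abundance of 2.65 in the authors' deposited table. This was 3.26-fold higher in leukemic cells, with the authors' adjusted p at 2.38e-04 in the authors' deposited table. The distal start lies in a region of higher abundance, 4.19 on the log2 scale, and had a log2 fold change of 0.31 and an adjusted p of 0.446 in the authors' deposited table. The proximal start thus rose and the distal start did not pass the threshold; the difference between them was not tested, since that needs values per library. Among 491 genes with listed starts in at least 2 regions, the last start minus the first had a median of -0.18. The Runx1 difference was 1.40, and 32 genes (6.52%) had one at least as high. In either direction, 17.5% of these genes had a difference of at least that size. In 8 of the 491 genes the last start rose, and in each of these 8 the first start was not called. Over all regions within 1 kb of a listed start, 1.01% rose and 1.83% fell.

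The other 3 Runx1 regions that rose lay in the last part of the gene. The one 217.8 kb past the distal start (chr16:92608067-92608485) had the highest value of the locus, a log2 fold change of 2.70, or 6.50-fold higher in leukemic cells, at an adjusted p of 1.09e-04 in the authors' deposited table. A second, 213.4 kb past it (chr16:92612452-92612854), had a log2 fold change of 2.18 at an adjusted p of 5.53e-05 in the authors' deposited table, the lowest of the locus. The remaining one, 184.8 kb past it (chr16:92641016-92641558), had a log2 fold change of 1.74 at an adjusted p of 5.03e-04 in the authors' deposited table. Between them lay the most abundant region of Runx1, 205.0 kb past the distal start (chr16:92620658-92621574), where the authors' deposited table gave a log2 abundance of 4.41, a log2 fold change of 0.88 and an adjusted p of 0.00152, just outside the threshold.

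Both Runx1 regions that fell lay between the promoters and near the distal one. The region 3.9 kb past the distal start (chr16:92821614-92822645) had a log2 fold change of -1.96, which is 3.88-fold lower in leukemic cells, at an adjusted p of 7.82e-05 in the authors' deposited table. A second, 24.6 kb past it (chr16:92800732-92802218), had a log2 fold change of -1.95, 3.86-fold lower, at an adjusted p of 5.85e-04 in the authors' deposited table. Both were well covered, with log2 abundances of 2.81 and 2.28 in the authors' deposited table. Neither was compared, by position or by sequence, with the known stem cell enhancer, so whether either region is that enhancer was not tested.

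**Figure D1:**
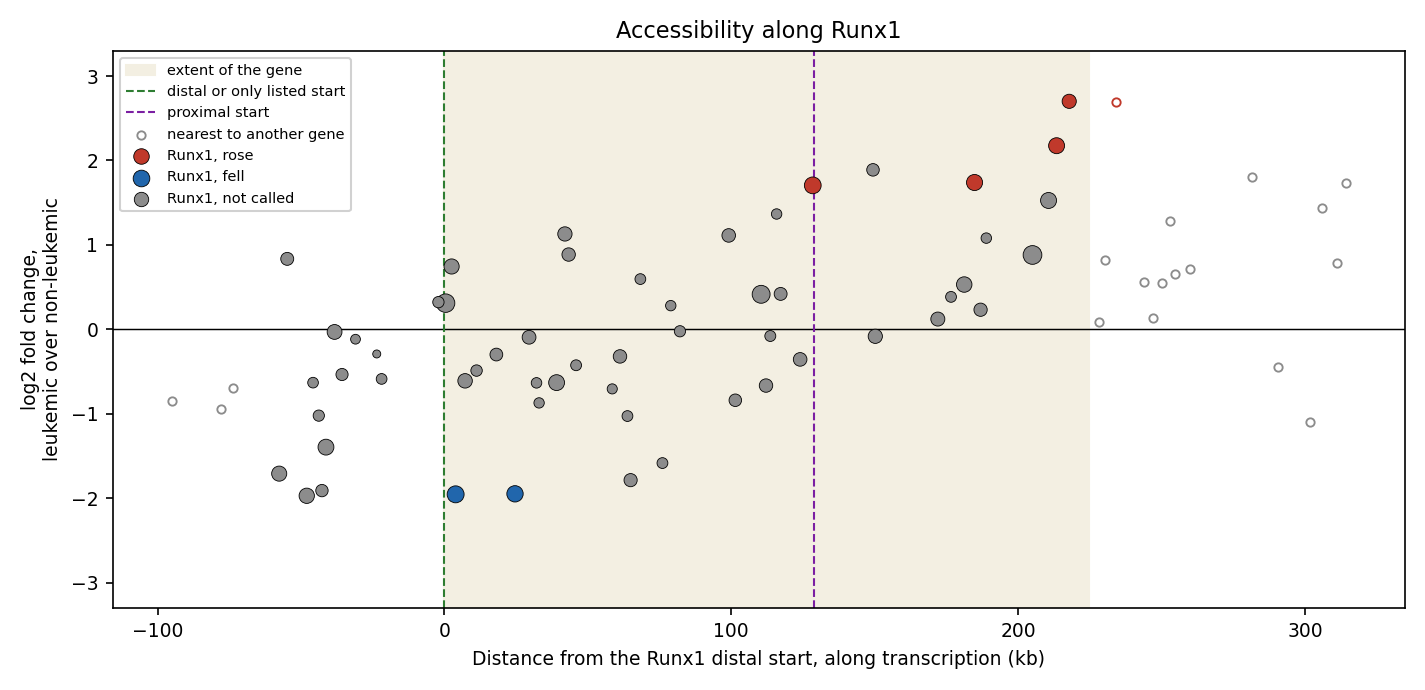
Log2 fold change, leukemic over non-leukemic, of each region against its distance from the Runx1 distal start along transcription (kb). Filled points are Runx1 regions sized by log2 abundance, open points are regions nearest to another gene, red points rose and blue points fell at an adjusted p under 0.001. All 4 Runx1 gains lie at or past the proximal start at 128.7 kb, and both losses lie within 25 kb past the distal start.

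Counted by stretch and whatever gene was nearest, the sign of the fold changes differed along the Runx1 locus. From 1 kb before the proximal start to the end of the gene, 12 of 13 regions had a positive log2 fold change, with a median of 1.08, and 4 rose. In the 100 kb past the end of the gene, where the nearest genes were others, 13 of 15 were positive with a median of 0.72, and 1 rose (chr16:92591888-92592055), at a log2 fold change of 2.69 and an adjusted p of 1.25e-04 in the authors' deposited table. From the distal start to 1 kb before the proximal start, 20 of 30 regions were negative with a median of -0.34, and 2 fell. In the 100 kb upstream of the gene, 14 of 16 were negative with a median of -0.66, and none was called. Neighbouring regions come from the same libraries and are not replicates, so these are counts without a test.

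At the looser threshold of 0.05, which 17.2% of all regions passed (7.98% higher and 9.21% lower), 17 of the 56 Runx1 regions passed (30.4%), with 9 higher and 8 lower in leukemic cells. Among regions above the median abundance the share over the whole table was 29.7%. The like share of the 36 Runx1 regions above it was not counted. The 30.4% covers all 56 Runx1 regions, so it is not to be set against the 29.7%. Of the 9 higher ones, 7 lay at or past the proximal start and 2 between the starts. Of the 8 lower ones, 4 lay between the starts and 4 in the upstream flank, 41.3 to 57.6 kb before the distal start. The lowest of these 4, 48.0 kb before it, had a log2 fold change of -1.97 and an adjusted p of 0.00324 in the authors' deposited table.

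Runx2 had more tested regions than Runx1 and 1 of its 64 rose, while 0 fell. The share called was 1.56%, beside 2.46% of all regions, so it was not above that of the table; at 0.05 it was 17.2% for Runx2 and 17.2% for all regions. Its regions were less open, with a median log2 abundance of -0.77 at Runx2 beside -0.09 at Runx1 and -1.17 over all regions. The median log2 fold change was 0.10, with a range of -1.77 to 1.95, beside a median of 0.10 for all regions of chromosome 17.

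The region that rose at Runx2 lay inside the gene, 161.4 kb past the listed start (chr17:44653099-44653427). Its log2 fold change was 1.73, or 3.31-fold higher in leukemic cells, with a log2 abundance of 2.04 and an adjusted p of 4.62e-04 in the authors' deposited table. Over the distal start, the region (chr17:44814383-44814829) had a log2 fold change of 0.68, a log2 abundance of -0.09 and an adjusted p of 0.191 in the authors' deposited table. The most abundant region lay past the end of the gene (chr17:44432608-44433387), with a log2 abundance of 2.14, a log2 fold change of -0.69 and an adjusted p of 0.137 in the authors' deposited table. The widest, 2834 bp long and 79.2 kb past the start, had a log2 fold change of 0.68 and an adjusted p of 0.222 in the authors' deposited table.

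Higher and lower regions lay side by side along Runx2. At 0.05, 7 regions were higher and 4 lower in leukemic cells, all inside the gene. The higher ones ran from 37.2 to 269.1 kb past the start, and after the called region the authors' deposited table gave its lowest adjusted p, 0.00168, to one with a log2 fold change of 1.83. The lower ones ran from 22.4 to 232.9 kb past it, with log2 fold changes of -1.77 to -1.43 in the authors' deposited table. Inside the gene 32 of 56 regions had a positive value, with a median of 0.20. Past its end 6 of 8 were negative, with a median of -0.56, and none of these passed 0.05.

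Runx3 had 1 region that fell of 16, and 0 that rose. It lay 4.0 kb past the end of the gene, 61.4 kb past the distal start (chr4:135181834-135182197), with a log2 abundance of 1.81 in the authors' deposited table. Its log2 fold change was -2.55, which is 5.86-fold lower in leukemic cells, at an adjusted p of 3.87e-04 in the authors' deposited table. The share called at Runx3 was 6.25%, that is 1 region, beside 2.46% of all regions. The next region outward, 72.3 kb past the distal start (chr4:135192695-135193274), had the lowest value of the locus, a log2 fold change of -2.68 with a log2 abundance of 2.43, and its adjusted p of 0.00143 in the authors' deposited table did not pass.

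The median log2 fold change over the Runx3 regions was -0.44, with 11 of 16 negative, beside a median of 0.12 for all regions of chromosome 4. At 0.05, 4 regions were lower in leukemic cells and 1 was higher. Inside the gene the lower ones lay 8.4 and 39.5 kb past the distal start, with log2 fold changes of -1.48 and -2.06 and adjusted p of 0.00943 and 0.00595 in the authors' deposited table. The higher one lay 48.7 kb past it, with a log2 fold change of 1.42 and an adjusted p of 0.0244 in the authors' deposited table.

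The proximal start of Runx3 lies in its most abundant region (chr4:135152090-135154468), with a log2 abundance of 3.47, a log2 fold change of -0.58 and an adjusted p of 0.118 in the authors' deposited table. No region of Runx3 by the rule covers the distal start. A region that reaches into the distal promoter window (chr4:135120031-135120626) has Gm16225 as its nearest gene, and its log2 fold change was 0.31, its log2 abundance 3.73 and its adjusted p 0.531 in the authors' deposited table. Of the 5 listed starts covered by a region of these genes the Runx1 proximal start was the one called.

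In the 100 kb upstream of Runx3, where Gm16225 and Gm42327 are the nearest genes, 15 of 24 regions were negative with a median of -0.30. Of these, 1 fell, 61.5 kb outside the gene (chr4:135059022-135059195), with a log2 fold change of -2.69 and an adjusted p of 5.06e-04 in the authors' deposited table. With assignment to protein-coding genes only, that region belonged to Runx3 and the count that fell became 2.

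**Figure D2:**
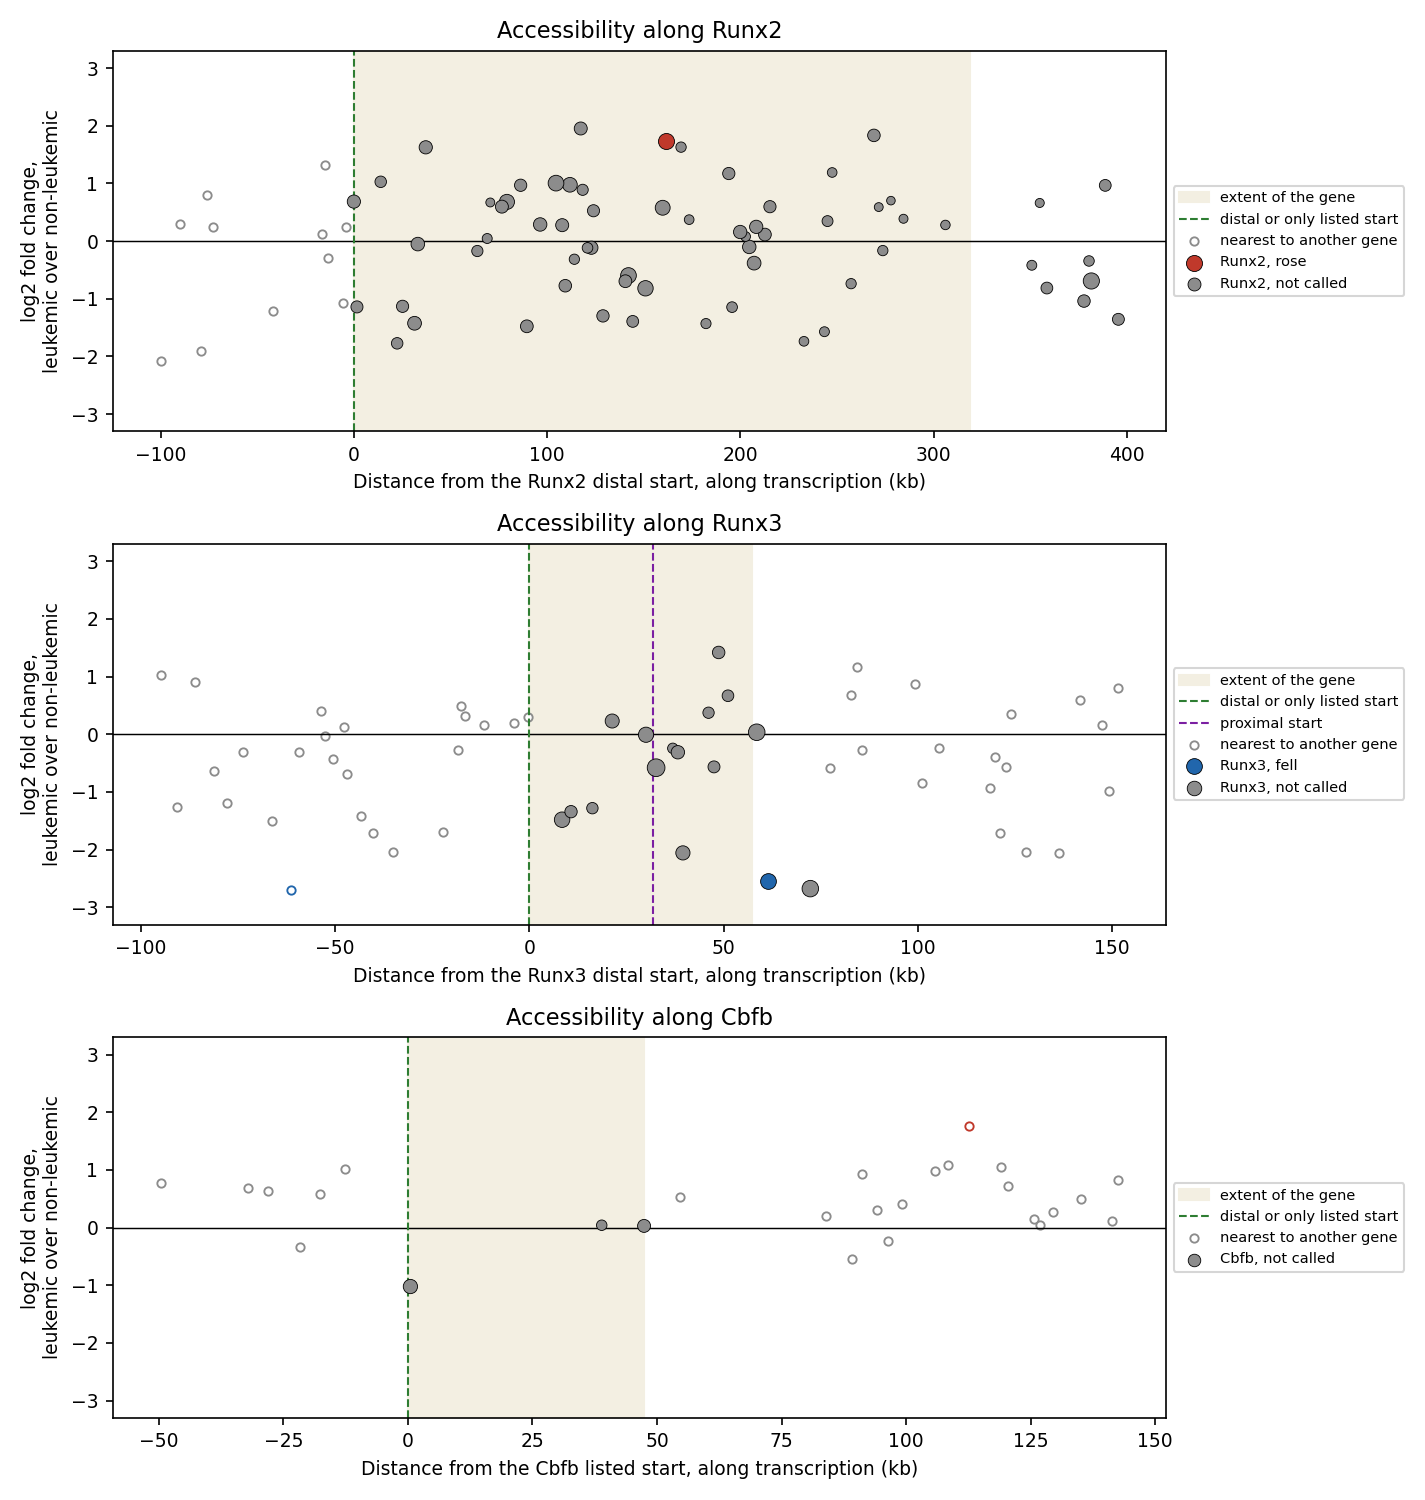
Log2 fold change, leukemic over non-leukemic, of each region against its distance (kb) from the distal or only listed start of Runx2, Runx3 and Cbfb. Filled points are regions of the named gene sized by log2 abundance, and open points are regions nearest to another gene within 100 kb; red and blue mark an adjusted p under 0.001. Runx2 has 1 gain inside the gene, Runx3 1 loss just past its end, and Cbfb 0 of either.

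Cbfb had 3 regions and 0 were called. The region over its start (chr8:105170064-105172359) had a log2 fold change of -1.02, a log2 abundance of 0.66 and an adjusted p of 0.146 in the authors' deposited table. A second, inside the gene and 38.9 kb past the start (chr8:105209303-105209936), had a log2 fold change of 0.04 and an adjusted p of 0.983 in the authors' deposited table. The remaining one, at the end of the gene (chr8:105217963-105218224), had a log2 fold change of 0.03 and an adjusted p of 0.989 in the authors' deposited table. Both belong to the authors' unchanged set, which holds regions with an adjusted p over 0.9. A change at Cbfb was therefore not detected, and without values per library no interval can be set on how large a change could have been missed.

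**Figure D3:**
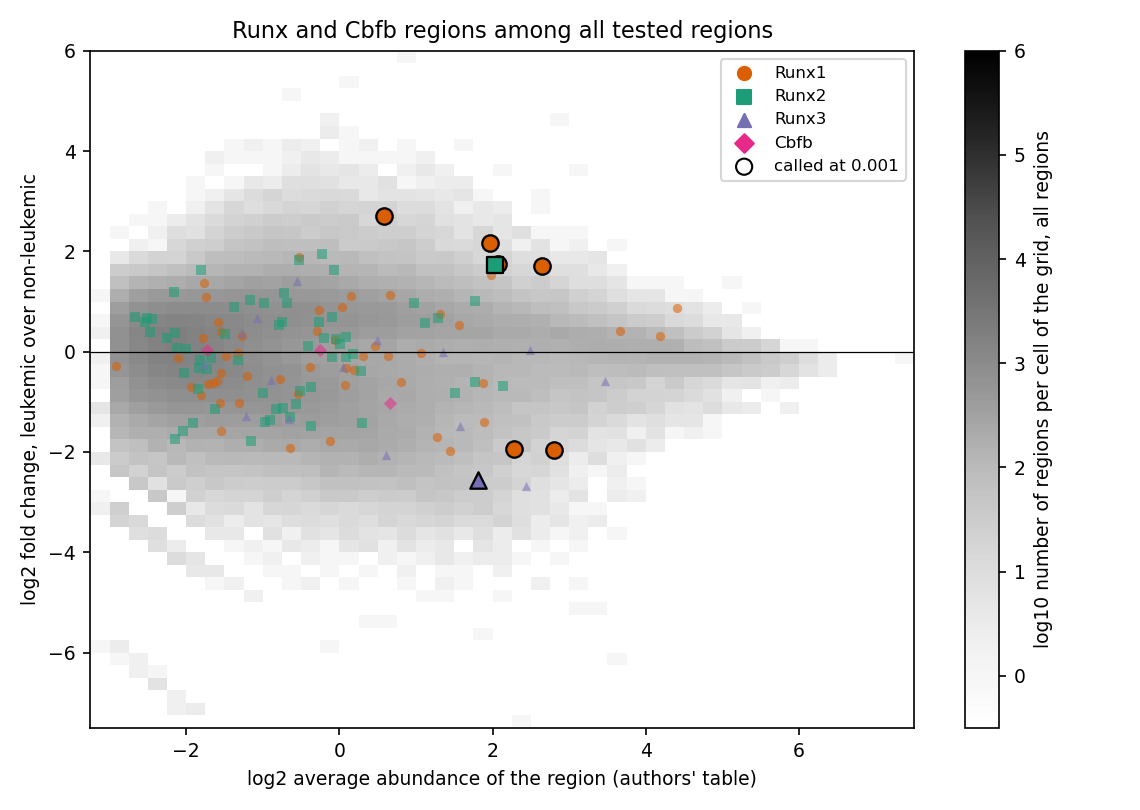
Log2 fold change, leukemic over non-leukemic, against log2 average abundance for the 139 regions of the 4 genes, over a grey grid of all 160978 regions shaded by the log10 number per grid cell. Black outlines mark the 8 called regions, which have log2 abundances of 0.59 to 2.81; the less abundant regions of the 4 genes carry no call.

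Over the 4 genes together, 5 of 139 regions rose and 3 fell (5.76%), and all 8 were above the median abundance of the table. Of the regions above that median, 8 of 91 were called (8.79%), beside 4.75% of all such regions. Of these 8 calls, 6 were at Runx1. At 0.05 the share over all 139 regions was 23.7%, with 17 regions higher and 16 lower in leukemic cells, beside 17.2% of all regions. Of all regions above the median abundance 29.7% passed 0.05. The like share of the 91 regions of these genes above it was not counted, so the 23.7% beside 17.2% is not matched for abundance. The authors' unchanged set held 6 regions of Runx1, 9 of Runx2, 3 of Runx3 and 2 of Cbfb. Together these were 14.4% of the 139 regions, beside 11.9% of all regions.

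**Figure D4:**
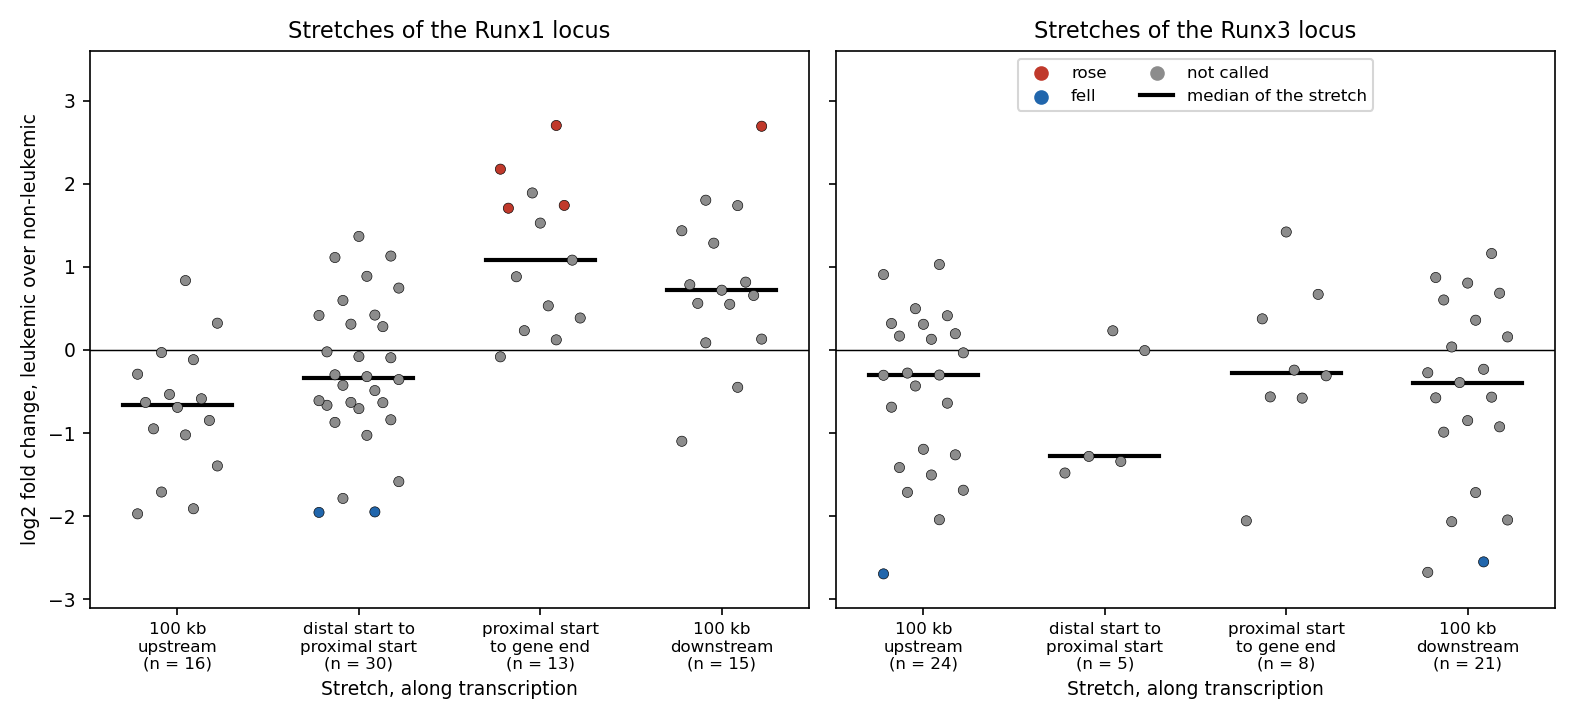
Log2 fold change, leukemic over non-leukemic, of every region within 100 kb of Runx1 and Runx3, grouped by stretch along transcription whatever gene is nearest, with black bars at the medians and called regions in red (rose) or blue (fell). At Runx1 the medians are -0.66, -0.34, 1.08 and 0.72 along transcription; at Runx3 each of the 4 medians is negative.

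Runx proteins act with other DNA-binding factors at blood enhancers. In a list of 12 such partner genes with 160 regions, 3 regions rose and 9 fell (7.5%, beside 2.46% of all regions), and the median of their log2 fold changes was -0.15. Their median log2 abundance was -0.01, beside -1.17 over all regions, and 4.75% of all regions above the median abundance were called. Erg, a stem cell ETS factor, had losses with log2 fold changes of -3.84 and -2.89 in the authors' deposited table. Further losses lay at Tal1 (-1.67), a blood-forming helix-loop-helix factor, at Lmo2 (-3.20), its bridging partner, and at Spi1, with 5 losses from -7.30 to -2.14 as log2 fold changes in the authors' deposited table. The URE lies upstream of Spi1 and carries a deletion in all 4 AML libraries but in only 1 of the 4 normal ones. Whether missing DNA, not closed chromatin, lowers these Spi1 values was not tested. Gains lay at the ETS factor genes Fli1 and Ets1, with log2 fold changes of 1.91 and 1.76 at Fli1 and 2.64 at Ets1 in the authors' deposited table. Spi1 and Lmo2 are on chromosome 2, where the median of all regions was -0.56. Away from that chromosome, 3 regions of the list fell. Of the list's 160 regions, 14 at Spi1 and 14 at Lmo2 lie on chromosome 2. The list's share off that chromosome was not computed, and 1.03% of all regions off it fell.

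In a list of 21 corepressors and coactivators that bind Runx proteins, 20 had regions, and of their 253 regions 1 rose and 1 fell (0.791%, below the 2.46% of all regions), with a median of -0.02. The gain, near Wwtr1, which encodes the coactivator TAZ, had a log2 fold change of 4.08 at an adjusted p of 9.12e-07 in the authors' deposited table. The loss, near Cbfa2t3, which encodes a corepressor of the ETO family, had a log2 fold change of -1.89 at an adjusted p of 8.34e-04 in the authors' deposited table.

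Among 38 known targets of Runx factors in blood and bone, 33 had regions, and of 291 regions 11 rose and 7 fell (6.19%, beside 2.46% of all regions), with a median of 0.17. Their median log2 abundance, -0.53, was also above the -1.17 over all regions. Of the 7 losses, 5 lie at Spi1 on chromosome 2. Away from that chromosome, 2 regions of the list fell. Of the list's 291 regions, 14 at Spi1, 6 at Gfi1b, 5 at Myl9 and 2 at Rag1 lie on chromosome 2. The list's share off that chromosome was not computed either, and 1.03% of all regions off it fell. The granule protein genes Mpo (2.33), Elane (1.82) and Ctsg (2.13 and 2.80) had gains, the values being log2 fold changes from the authors' deposited table. Gfi1, which encodes a transcriptional repressor, had gains of 2.23 and 3.14, and Cdk6, a cell cycle kinase, had 5 gains from 1.76 to 3.01, all as log2 fold changes in the authors' deposited table. The losses were at Itga2b (-2.59), which encodes a platelet integrin, at Mylk (-1.88), a myosin kinase, and 5 times at Spi1, which is also in the partner list, as log2 fold changes in the authors' deposited table. The limit set by the URE deletion holds for these Spi1 losses as well. The lists were chosen with earlier results of these data known, and expression was not measured here.

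**Figure D5:**
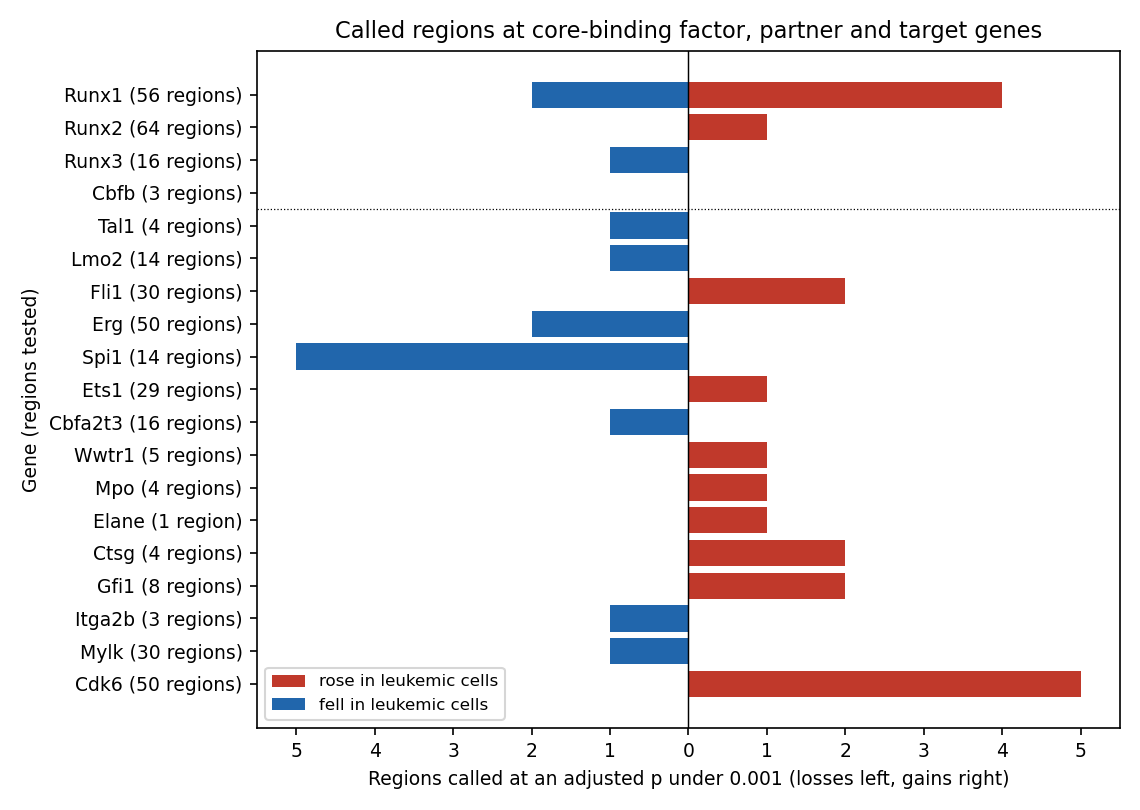
Number of regions called at an adjusted p under 0.001 for Runx1, Runx2, Runx3 and Cbfb (above the dotted line) and for each gene of the partner, cofactor and target lists with at least 1 call, with losses in leukemic cells to the left and gains to the right. Runx1 is the one core-binding factor gene with calls in both directions, 4 gains and 2 losses.

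Markers of cell types the sorted fraction could hold were counted in the same comparison, beside 1.24% of all regions that rose and 1.22% that fell. Of 128 regions at 8 stem and progenitor genes, 0 rose and 7 fell (5.47% called; 3 at Cd34, 1 at Flt3 and 3 at Meis1). At 5 monocyte genes, 7 of 47 regions rose (14.9%; 5 at F13a1, 1 at Irf8 and 1 at Ccr2) and 0 fell, at 6 neutrophil genes 2 of 27 rose and 1 fell, and at 4 megakaryocyte genes 0 of 28 rose and 2 fell. At 0.05, which 7.98% of all regions passed as higher and 9.21% as lower, 11 monocyte regions were higher. Another 6 were lower, 4 of them at Csf1r. Of the neutrophil regions, 3 were higher and 9 lower at 0.05, with a median log2 fold change of -0.74. Genes of the depleted lineages had 0 calls in 20 erythroid, 73 B cell and 30 T and NK cell regions, and 14 osteoblast and stroma regions had 0; at the share called over all regions, counts this small would hold few calls or none. The part of cell type composition in the values at the Runx genes was not tested.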

How the data were processed

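The series holds 8 ATAC-seq libraries of mouse marrow cells, whose deposited values are 1 comparison of leukemic and non-leukemic cells. Per the submitters' processing notes, Bowtie2 2.4.1, SAMtools 1.10.2 and Genrich 0.6 were used with GRCm38 (mm10). The title of the deposited table names csaw, which tests windows of the genome and merges them into regions; how the fold of a merged region was formed, the normalization and any shift of reads are unstated in the sources used here. In the deposited log2 fold change the authors set leukemic over non-leukemic cells, and the deposited log2 average abundance is read from the column's place and range. The authors' deposited p-value comes with an adjusted p-value, which equalled a Benjamini-Hochberg adjustment over all 160978 regions to within 1.72e-15.

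Regions were assigned to the nearest RefSeq gene extent (GRCm38.p6) within 100 kb with Python 3.11.15, pandas 2.3.3 and numpy 2.4.6, figures were drawn with matplotlib 3.10.9, and the assignment and adjustment were tested on simulated data. No test was run here; each p-value printed is the authors'. Named are the 4 genes, each of their called regions, per gene the region with the lowest adjusted p, the most abundant one and those at listed starts, and each list gene with a call; other named regions were chosen after their values were seen. The genes, lists and thresholds were chosen with earlier results of these data known. Alternatives were other thresholds, assignment rules, an abundance filter and centring by chromosome. Coordinates are printed unchanged, with no statement of whether the first base is numbered 0 or 1. The authors' p-values rest on the libraries compared, and the sources used here do not say which or how many stood on either side. The labels do not tie the libraries to separate mice. What spread these p-values reflect is therefore not known.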

Additional observations from a re-analysis of the deposited data

How the results depend on the processing

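Of 115 values recomputed under an alternative, 84 stayed within their limits and 31 moved. A fold change counted as moved past 0.1 on the log2 scale and a count past 1.5 times. Fold changes of called regions were recomputed only less the chromosome median, at most 0.12, which could not change their sign. Counts of called regions above the median abundance could not move either, since all 8 calls lie above it. Counts depended on the threshold. At an adjusted p under 0.0001, which 0.639% of all regions passed, Runx1 had 1 region that rose and 1 that fell, Runx2 had 0 that rose and Runx3 had 0 that fell. At 0.05 they were 9 and 8 for Runx1, 7 and 4 for Runx2 and 1 and 4 for Runx3, and the lists had 17 higher and 30 lower regions for partners (29.4%), 14 and 28 for corepressors and coactivators (16.6%), and 42 and 23 for targets (22.3%), beside 17.2% of all regions. Partner and target regions had higher median abundances than all regions, and 29.7% of all regions above the median abundance passed 0.05. With every region within 100 kb counted, Runx3 had 2 that fell and Cbfb 1 that rose, and with protein-coding genes only Runx3 had 2 that fell.

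The medians of Runx1, Runx2 and Cbfb lie near 0 and changed sign. The median log2 fold change moved to 0.045 for Runx1 (from -0.09), -0.57 for Runx3 and -0.50 for Cbfb (from 0.03) above the median abundance, to 0.18 for Runx1 and 0.20 for Runx2 within 20 kb, and to -0.31 for Runx3 with protein-coding genes. Less the chromosome median it was -0.0062 for Runx2 (from 0.10), -0.56 for Runx3 and -0.20 for Cbfb, and the called regions became 1.62 at Runx2 and -2.67 at Runx3. The looser core TGNGGT, found in 45.8% of windows, gave 5 matches at the Runx2 distal start. The cause of these moves was not tested beyond what each setting leaves out. No paired analysis was possible because the comparison was analysed without values for single libraries, and for the same reason no replicate could be left out.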

Other observations

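The flanks of Cbfb held more open regions than the gene itself. In the 100 kb past its end, where 1 of 19 regions has Cbfb as its nearest gene, 17 of the 19 had a positive log2 fold change, with a median of 0.41 beside 0.23 for all regions of chromosome 8. Of these, 1 rose in leukemic cells (chr8:105283173-105283414, nearest to 4931428F04Rik), at a log2 fold change of 1.77 and an adjusted p of 4.75e-04 in the authors' deposited table. In the 100 kb upstream, 5 of 6 were positive with a median of 0.66 and 0 were called. Upstream of Runx2, 6 of 11 regions were positive with a median of 0.12 and 0 were called.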
